A study of Mus musculus with 6 samples.

Results

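Cathepsins are the proteases of endosomes and lysosomes, and cystatin C is a secreted protein that blocks many of them. The genes described are *Ctsa*, *Ctsb*, *Ctsc*, *Ctsd*, *Ctsh*, *Ctsk*, *Ctsl*, *Ctss*, *Ctsz* and *Cst3*, chosen by symbol, 10 of the 20327 gene symbols in each library. Of these, 9 passed the filter on low counts (at least 10 tags in at least 3 libraries), as did 9334 of all symbols. *Ctss* did not pass. Most cathepsins are made as inactive precursors, are carried to the lysosome by sorting receptors and become active in its acid interior. *Ctsb*, *Ctsc*, *Ctsh*, *Ctsk*, *Ctsl*, *Ctss* and *Ctsz* encode cysteine proteases, *Ctsd* an aspartic protease and *Ctsa* a serine carboxypeptidase. In fibroblasts these enzymes break down proteins taken up from outside, including collagen.

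Both groups came from the colon of C57BL/6 mice with the genotype *Il11-Egfp*, aged 9 to 15 weeks, which had 1.5% dextran sulfate sodium (DSS, a detergent-like polymer that injures the colon epithelium) in drinking water for 5 days and whose colons were taken on day 7. DAPI-negative cells without CD45, CD31, EpCAM and Ter119 were sorted into EGFP-Positive cells, here IL-11+ fibroblasts, and EGFP-Negative cells, here IL-11- fibroblasts (n = 3 libraries per group). RNA was read by 5′Tag-seq, which counts tags from the 5′ side of polyA transcripts. The comparison asks how cells in which the reporter is on differ from the remaining sorted stromal cells of the same inflamed colon.

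The reporter is a bacterial artificial chromosome carrying *Il11* sequence, so EGFP marks activity of that transgene. Every mouse had received DSS, and no untreated library was analysed here. Library totals, in tags and by replicate, were 1057170, 1078179 and 1169817 for IL-11- and 1046538, 1022851 and 1049048 for IL-11+ fibroblasts. Levels below are CPM (tags scaled to a common library size, with TMM factors). A floor of 3 tags stood at 2.46 to 3.18 CPM, and this floor covers counting error only.

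The labels were checked first. *Il11* stood at 26.7, 48.1 and 73.1 CPM in IL-11- replicates 1, 2 and 3 and at 1438, 743 and 2535 CPM in IL-11+ replicates 1, 2 and 3. Every IL-11+ library was far above every IL-11- library. All 10 fibroblast markers were tested in both groups, with *Dcn*, a collagen-binding proteoglycan, the most abundant (here and below, by mean CPM over all 6 libraries). Their summed level was 22830, 22910 and 25270 CPM in IL-11- and 43100, 34860 and 30930 CPM in IL-11+ replicates 1, 2 and 3. Of the fibroblast markers 4 were higher and 1 lower by adjusted p (5 and 1 in the fit with a replicate block), and the 2 with a fold change over 2 were *Col3a1* (log2 fold change 1.04) and *Pdpn* (log2 fold change 1.06). The median log2 fold change of this list was 0.39, beside -0.01 over all tested genes.

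The IL-11- libraries also held transcripts of other stromal cells. Of 10 smooth muscle and pericyte markers, 9 were called lower in IL-11+ fibroblasts, and their summed level was 4640, 4951 and 5589 CPM in IL-11- against 535, 540 and 663 CPM in IL-11+ replicates 1, 2 and 3. The most abundant was *Rgs5*, a pericyte gene (log2 fold change -3.11), and the largest log2 fold changes were those of *Myh11* (-4.55), *Myl9* (-4.27) and *Actg2* (-4.04), genes of the contractile apparatus. *Notch3* is among the 9 and passed the filter through IL-11- libraries alone, so that it could be called in 1 direction only. *Kcnj8* was higher by adjusted p alone (log2 fold change 0.71). The median of this list was -3.71. Of 5 enteric glia markers 2 were tested and both were called lower, among them *Gfap*, an intermediate filament gene of glia. The glia list summed to 104, 81.0 and 97.7 CPM in IL-11- and 17.0, 12.2 and 12.4 CPM in IL-11+ replicates 1, 2 and 3. Like *Notch3*, *Gfap* and *Kit* passed the filter through IL-11- libraries alone. *Kit*, here the 1 marker of the mast cell list in the files and also a gene of interstitial cells of Cajal, had 63, 34 and 69 IL-11- tags against 0, 0 and 7 IL-11+ tags (replicates 1, 2 and 3).

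Several other cell types that the sort should remove had low marker levels. Of 14 macrophage and dendritic cell markers in the files 2 were tested, and the list summed to 45.8, 78.2 and 50.1 CPM in IL-11- and 35.0, 23.4 and 26.7 CPM in IL-11+ replicates 1, 2 and 3. *H2-Ab1* and *Cd74* were close in mean CPM over all libraries, and *Cd74* was the higher of them in IL-11- fibroblasts. *Cd74* was called lower (2.84-fold), with 12, 24 and 15 IL-11- tags against 2, 4 and 10 IL-11+ tags (replicates 1, 2 and 3). It reached the filter count in every IL-11- library but only in replicate 3 of IL-11+. *Csf1r* had at most 2 tags in any library. Of 6 general leukocyte markers 0 were tested, with *Laptm5* the most abundant and sums of 3.82, 23.6 and 20.5 CPM in IL-11- and 3.18, 5.08 and 7.63 CPM in IL-11+ replicates 1, 2 and 3. Neutrophil markers, led by *S100a8*, summed to 3.82, 6.60 and 5.75 CPM in IL-11- and 24.4, 7.11 and 11.4 CPM in IL-11+ replicates 1, 2 and 3. Neither endothelial nor neutrophil lists held a tested gene. Endothelial markers, led by *Plvap*, summed to at most 11.5 CPM in any library, and *Pecam1* had at most 1 tag. Of 8 epithelial markers 1 was tested. The list summed to 31.5, 25.4 and 51.7 CPM in IL-11- and 9.54, 13.2 and 21.9 CPM in IL-11+ replicates 1, 2 and 3, and its most abundant gene, *Lgals4*, was called lower (log2 fold change -1.26), while *Epcam* had at most 1 tag.

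Some libraries stood apart in markers of erythroid and plasma cells, which the sort should also remove. Of 6 erythroid markers 0 were tested. They were led by *Hbb-bs* and summed to 90.7, 0 and 306 CPM in IL-11- and 19.1, 2.03 and 19.1 CPM in IL-11+ replicates 1, 2 and 3. *Jchain*, a plasma cell gene and the most abundant of the lymphocyte list, had 148, 159 and 4 IL-11- tags against 52, 245 and 68 IL-11+ tags (replicates 1, 2 and 3), and it made up most of that list in every library but IL-11- replicate 3. The sums of the list were 143, 159 and 12.3 CPM in IL-11- and 60.4, 249.8 and 67.7 CPM in IL-11+ replicates 1, 2 and 3. Neither pattern followed the groups. In such sorted bulk samples, fewer cells of a type and less RNA per cell cannot be told apart.

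Among the cathepsins, *Ctsc* rose most in IL-11+ fibroblasts, *Ctsl* and *Ctsh* rose less, and *Cst3* fell. An adjusted p under 0.05 with a fold change over 2 was reached by 1 of the 9 tested genes upward and 0 downward, beside 3.44% of all tested genes higher and 6.37% lower. By adjusted p alone 3 were higher and 1 was lower, beside 6.84% and 8.7% of all tested genes. The median log2 fold change of the 9 was 0.22. IL-11+ values lay wholly above IL-11- values for 4 genes (*Ctsc*, *Ctsh*, *Ctsk* and *Ctsl*) and wholly below for 2 (*Ctsd* and *Cst3*), beside 14.5% and 16.7% of all tested genes. With counts this small, and genes chosen with results known, these shares describe the list and do not set it apart.

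**Figure D1:**
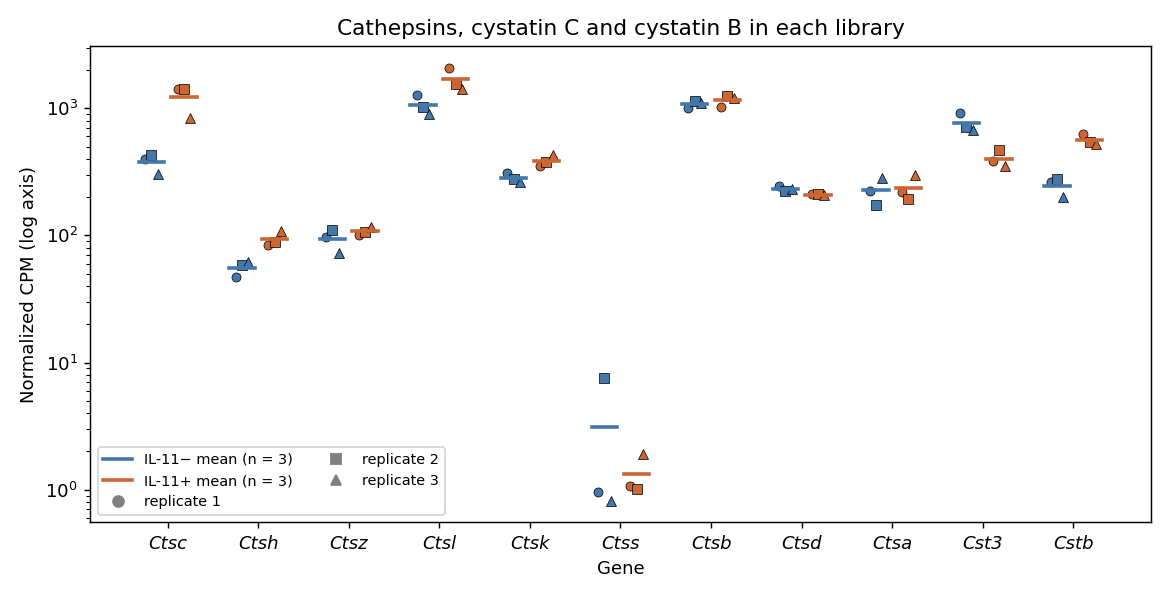
Normalized CPM of each gene (log axis) in 3 IL-11- and 3 IL-11+ libraries, with symbols for the replicate and bars for the group means. *Ctsc* lies between 303 and 430 CPM in IL-11- and between 844 and 1427 CPM in IL-11+ libraries, and *Ctss* is near 1 tag in every library except IL-11- replicate 2.

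Of the cysteine proteases that trim protein ends, *Ctsc* encodes dipeptidyl peptidase I, which removes dipeptides from the amino end of proteins and activates the granule serine proteases of neutrophils, mast cells and cytotoxic lymphocytes. It stood at 402, 430 and 303 CPM in IL-11- replicates 1, 2 and 3 and at 1427, 1415 and 844 CPM in IL-11+ replicates 1, 2 and 3. The groups did not overlap, and replicate 3 was the lowest of each group. Means were 378 ± 66.6 and 1229 ± 333 CPM (SD, n = 3). The log2 fold change was 1.70 with a standard error of 0.21 and a 95% interval of 1.26 to 2.14, a 3.25-fold difference (adjusted p = 1.41e-05, the quasi-likelihood test of edgeR, Benjamini-Hochberg adjusted). Same-numbered libraries gave ratios of 3.55, 3.29 and 2.79. Neutrophils are rich in this enzyme, and the neutrophil markers summed to 4, 7 and 7 IL-11- tags against 23, 7 and 12 IL-11+ tags (replicates 1, 2 and 3). Most of these in IL-11+ replicates 1 and 3 were of *S100a8*. *S100a9* had 1, 0 and 4 IL-11- tags against 9, 4 and 0 IL-11+ tags (replicates 1, 2 and 3), and *Csf3r* had 3 tags or fewer in every library. The part of neutrophils in this result was not tested. The gene lies at chr7:88278085-88310888 on the plus strand of GRCm38.

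*Ctsh* encodes an aminopeptidase that also matures surfactant proteins in the lung. It had 46.8, 58.4 and 61.6 CPM in IL-11- and 84.8, 89.4 and 107.8 CPM in IL-11+ replicates 1, 2 and 3. The lowest IL-11+ library exceeded the highest IL-11- library, at levels resting on 49 to 113 tags. The log2 fold change was 0.75 with a standard error of 0.19, a 1.69-fold difference (adjusted p = 0.0100, the quasi-likelihood test of edgeR, Benjamini-Hochberg adjusted). Without IL-11- replicate 1 the adjusted p was 0.0545, the highest over the alternatives, whose lowest was 0.00162. *Ctsz*, a carboxypeptidase, had 96.4, 110.2 and 72.3 CPM in IL-11- and 100.7, 106.6 and 116.3 CPM in IL-11+ replicates 1, 2 and 3. These ranges overlapped, and the log2 fold change of 0.22 had a 95% interval of -0.17 to 0.61.

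Other cysteine cathepsins cut within proteins, collagen among them. *Ctsl* encodes such an endopeptidase of lysosomes, which can also be secreted. Its level was 1264, 1025 and 907 CPM in IL-11- and 2088, 1540 and 1427 CPM in IL-11+ replicates 1, 2 and 3. The groups did not overlap, with IL-11+ replicate 1 the highest of all 6 libraries. Means were 1066 ± 182 and 1685 ± 354 CPM (SD, n = 3), the log2 fold change was 0.66 with a standard error of 0.19, and the fold change was 1.58 (adjusted p = 0.0222, the quasi-likelihood test of edgeR, Benjamini-Hochberg adjusted). The adjusted p was 0.108 without IL-11- replicate 2, 0.0756 without IL-11- replicate 3 and 0.0982 without IL-11+ replicate 1. Each of these fits had 1 library fewer and did not pair the libraries, and the value of *Ctsl* stayed positive in all of them. Same-numbered libraries gave ratios of 1.65, 1.50 and 1.57. In the fit with a replicate block the adjusted p was 0.000145 (the quasi-likelihood test of edgeR, Benjamini-Hochberg adjusted). The range over the alternatives was 0.000145 to 0.108.

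*Ctsk* encodes cathepsin K, the collagenase by which osteoclasts resorb bone and which fibroblasts also make. It had 312, 277 and 264 CPM in IL-11- and 349.8, 377 and 426 CPM in IL-11+ replicates 1, 2 and 3. The ranges did not overlap but lay close together, with the highest IL-11- library near the lowest IL-11+ library. Its log2 fold change of 0.44 (standard error 0.16) had an adjusted p of 0.0816 by the quasi-likelihood test of edgeR, Benjamini-Hochberg adjusted. In the fit with a replicate block its adjusted p was 0.0257, in a range of 0.0257 to 0.222 over the alternatives. By adjusted p in that paired fit, 4 of the 9 tested genes were higher and 1 was lower, beside 9.33% and 11.2% of all tested genes.

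*Ctss* encodes cathepsin S, the protease of antigen-presenting cells that trims the invariant chain of MHC class II. It had 1, 8 and 1 IL-11- tags against 1, 1 and 2 IL-11+ tags (replicates 1, 2 and 3), and was not tested. Only IL-11- replicate 2 was above the floor of 3 tags. The macrophage and dendritic cell markers summed to 48, 83 and 61 IL-11- tags against 33, 23 and 28 IL-11+ tags (replicates 1, 2 and 3). The general leukocyte markers summed to 25 tags in IL-11- replicate 2 and to 25 tags in IL-11- replicate 3. The part of such cells in this value was not tested.

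The general lysosomal proteases did not pass the test. *Ctsb* encodes an abundant endopeptidase and carboxypeptidase, with 1001, 1148 and 1106 CPM in IL-11- and 1021, 1238 and 1195 CPM in IL-11+ replicates 1, 2 and 3. The ranges overlapped, and the 95% interval of the log2 fold change, -0.26 to 0.43, holds differences in either direction. *Ctsd*, the aspartic protease, had 245, 222 and 233 CPM in IL-11- and 209.9, 213 and 206 CPM in IL-11+ replicates 1, 2 and 3. Every IL-11+ value was below every IL-11- value, yet the log2 fold change of -0.16 (95% interval -0.48 to 0.17) had an adjusted p of 0.577 by the quasi-likelihood test of edgeR, Benjamini-Hochberg adjusted. *Ctsa*, the carboxypeptidase that shields beta-galactosidase and neuraminidase in a complex, had 222.5, 174 and 282 CPM in IL-11- and 218, 192 and 297 CPM in IL-11+ replicates 1, 2 and 3. Replicate 3 was highest and replicate 2 lowest in each group. Its log2 fold change was 0.06 (95% interval -0.36 to 0.48) and ranged from -0.14 to 0.25 when single libraries were left out.

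The inhibitor moved the other way. *Cst3* encodes cystatin C, which is secreted by most cells and binds cysteine cathepsins in their active site cleft. It stood at 919.5, 718 and 675 CPM in IL-11- and at 382, 466 and 354 CPM in IL-11+ replicates 1, 2 and 3. All IL-11+ libraries were below all IL-11- libraries. Means were 771 ± 130.5 and 400.5 ± 58.5 CPM (SD, n = 3). The log2 fold change was -0.94 with a standard error of 0.18 and a 95% interval of -1.32 to -0.57, so that the level was 1.92-fold lower, just short of the fold threshold of 2 (adjusted p = 0.000971, the quasi-likelihood test of edgeR, Benjamini-Hochberg adjusted). Over the 13 alternatives the log2 fold change ranged from -1.06 to -0.80. It passed that threshold in 3 of them, with library size scaling (-1.02), without IL-11- replicate 3 (-1.03) and without IL-11+ replicate 2 (-1.06), and was smallest in size without IL-11- replicate 1 (-0.80). Same-numbered libraries gave ratios of 0.415, 0.649 and 0.524. Of the 10 muscle and pericyte markers given above, 9 were lower as *Cst3* was and *Kcnj8* was higher, and their part in this result was not tested.

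**Figure D2:**
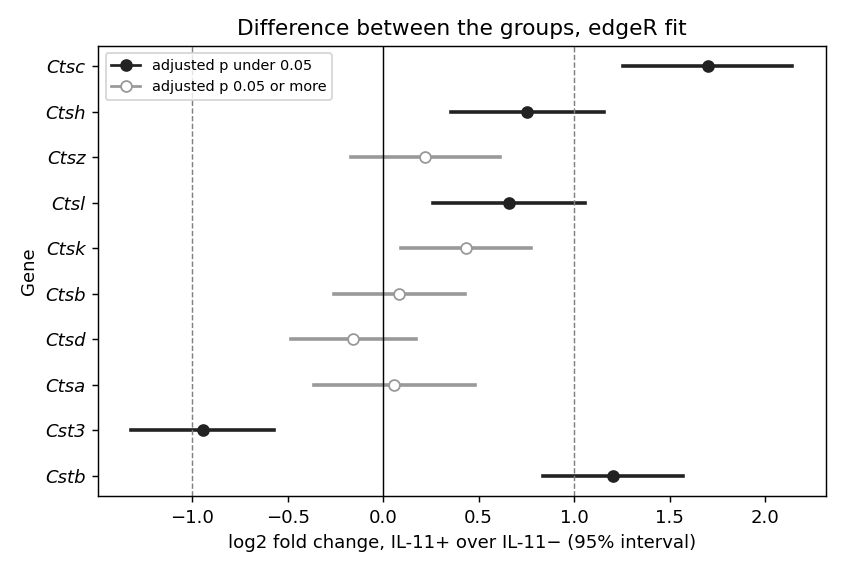
Log2 fold change of IL-11+ over IL-11- fibroblasts (points) with 95% intervals (lines) for the 9 tested genes and *Cstb*. Filled points have an adjusted p under 0.05, dashed lines mark a fold change of 2, and the point of *Cst3* at -0.94 lies just inside the lower line.

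Further cystatins and cathepsins were listed with them. *Cstb* encodes cystatin B, which acts inside cells, and had 262, 277 and 199 CPM in IL-11- and 628.5, 544 and 526 CPM in IL-11+ replicates 1, 2 and 3. It rose in every same-numbered pair, with ratios of 2.40, 1.97 and 2.65, and was called higher (log2 fold change 1.21, adjusted p = 7.10e-05 by the quasi-likelihood test of edgeR, Benjamini-Hochberg adjusted). It was the 1 tested gene of the 4 other cystatins in the files. *Cst6*, *Cst7* and *Csta1* had at most 2 tags in any library. Of 5 other cathepsins 2 were tested and 0 passed. *Ctsf* had 42, 33 and 24 IL-11- tags against 14, 30 and 30 IL-11+ tags (replicates 1, 2 and 3). *Ctso* had 38, 39 and 49 IL-11- tags against 23, 33 and 28 IL-11+ tags (replicates 1, 2 and 3). *Ctse* and *Ctsw* had at most 2 tags and *Cts8* at most 6.

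Summed levels put the family side by side. The 9 cathepsins together had 3591, 3452 and 3229 CPM in IL-11- and 5500, 5172 and 4620 CPM in IL-11+ replicates 1, 2 and 3. *Ctsc* made up 11.2, 12.5 and 9.38% of that sum in IL-11- and 25.9, 27.4 and 18.3% in IL-11+ replicates 1, 2 and 3. The sum was higher in each IL-11+ library, and so was the share of *Ctsc*, the gene already seen to rise most. Mean CPM went from 378 to 1229 for *Ctsc* and from 1066 to 1685 for *Ctsl*. *Ctsa*, *Ctsb*, *Ctsd*, *Ctsk* and *Ctsz* did not pass the test, so the sum does not stand for each gene in it. The summed fibroblast markers given above were also higher in each IL-11+ library, and the summed muscle and pericyte markers were lower. Their part in this sum, and in the rises of *Ctsc*, *Ctsl*, *Ctsh* and *Cstb*, was not tested. *Cst3* and *Cstb* together had 1181, 995 and 874 CPM in IL-11- and 1010, 1010 and 880 CPM in IL-11+ replicates 1, 2 and 3. Within that pair, *Cst3* made up 77.9, 72.2 and 77.3% in IL-11- and 37.8, 46.1 and 40.2% in IL-11+ replicates 1, 2 and 3. The sum of *Cst3* and *Cstb* overlapped between the groups while the share of *Cst3* did not. That share follows from the fall of *Cst3* and the rise of *Cstb* given above. As cystatin C is secreted and cystatin B acts inside cells, their summed tags are not a level of inhibitor. For each *Ctsl* tag there were 0.727, 0.700 and 0.744 *Cst3* tags in IL-11- and 0.183, 0.303 and 0.248 in IL-11+ replicates 1, 2 and 3. These sums carry no test.

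Levels of different genes were compared as CPM per kb of transcript. Tags from the 5′ side need not grow in number with length, so this scale can place short transcripts too high. It put *Cst3* (860 nt) and *Cstb* (603 nt) ahead of *Ctsb* (4743 nt) in both groups. Neighbours whose means ± SD overlapped are said not to differ beyond their spread. In IL-11- fibroblasts *Cst3* was first with 896 ± 152 CPM per kb (SD, n = 3). *Ctsl* (541 ± 92.2 CPM per kb) and *Cstb* (408 ± 68.8) came next and did not differ beyond their spread. *Ctsb* (229 ± 16.0) stood above *Ctsk* (188 ± 16.6) and *Ctsc* (152 ± 26.7), which did not differ beyond theirs. *Ctsd* (109.8 ± 5.42) was followed by *Ctsz* (64.5 ± 13.3) and *Ctsa* (62.0 ± 14.8), again not different beyond their spread, and *Ctsh* (34.4 ± 4.82) and *Ctss* (2.29 ± 2.83) came last. In IL-11+ fibroblasts the order began with *Cstb* (939 ± 90.5 CPM per kb) and *Ctsl* (855 ± 179), then *Ctsc* (493 ± 134) and *Cst3* (466 ± 68.0), then *Ctsk* (254 ± 25.7) and *Ctsb* (243 ± 24.3), and within each of these pairs the difference was inside the spread. *Ctsd* (98.6 ± 1.70) stood above *Ctsz* (74.9 ± 5.49), *Ctsa* (64.6 ± 14.9) and *Ctsh* (58.1 ± 7.52), each not different from the next beyond its spread, and *Ctss* had 0.979 ± 0.371 CPM per kb. This order holds for the per-kb scale only. By mean CPM, without division by length, *Ctsb* (1085 ± 75.7) and *Ctsl* (1066 ± 182) came before *Cst3* (771 ± 130.5) in IL-11- fibroblasts. Each of these did not differ from the next beyond its spread. In IL-11+ fibroblasts *Ctsl* (1685 ± 354 CPM), *Ctsc* (1229 ± 333) and *Ctsb* (1151 ± 115) stood above *Cstb* (566 ± 54.5). The place of *Ctsl* depends on the transcript taken: with a longer annotated transcript of 6168 nt in place of 1971 nt it has 173 CPM per kb in IL-11- and 273 CPM per kb in IL-11+ fibroblasts and ranks below *Ctsb* in the former. The transcript was settled after these values had been seen. Tags come from the 5′ side, and how many tags a transcript gives per length was not measured.

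The genes most like *Ctsc* over the 6 libraries, by root mean square difference of centred log2 CPM, were *Angptl4* (0.139), *Tenm3* (0.168) and *Rnf125* (0.171). *Angptl4*, a secreted inhibitor of lipoprotein lipase, had 98.3, 117 and 60.8 CPM in IL-11- and 339, 379.7 and 215.5 CPM in IL-11+ replicates 1, 2 and 3. As in *Ctsc*, replicate 3 was the lowest of each group, a likeness that follows from picking genes by their nearness to *Ctsc*.

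The rest of the lysosome was compared by lists. Of 13 genes that sort and process lysosomal enzymes 12 were tested, 0 rose and 1 fell, with a median log2 fold change of -0.05. The one that fell was *Sort1*, a sorting receptor, with 21, 21 and 33 IL-11- tags against 4, 5 and 4 IL-11+ tags (replicates 1, 2 and 3; log2 fold change -2.33). It passed the filter through IL-11- libraries alone and could be called in 1 direction only. In the fit with a replicate block 1 gene of the list was also higher, *Lgmn*, a protease that processes cathepsins (adjusted p = 0.0239, beside 0.120 without the block, the quasi-likelihood test of edgeR, Benjamini-Hochberg adjusted). *Psap*, the precursor of sphingolipid activators, was the most abundant and had a log2 fold change of -0.18. Of 37 other hydrolases 33 were tested and 0 were called, with a median of 0.00 and *Scpep1*, a carboxypeptidase, the most abundant. By adjusted p alone 0 of them were higher and 1 was lower, and with the replicate block 1 was higher and 2 were lower.

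Of 17 lysosomal membrane proteins 14 were tested, and 1 was called higher and 0 lower. *Cd63*, a tetraspanin of late endosomes and the most abundant of the list, rose by adjusted p alone (log2 fold change 0.68). By adjusted p 2 of the list were higher and 1 was lower, *Sidt2*, and the median was 0.03. All 17 subunits of the V-ATPase, the pump that acidifies lysosomes, were tested, with a median of 0.14 and *Atp6v0c* the most abundant. The 1 called subunit was *Atp6v0e2*, with 11, 13 and 18 IL-11- tags against 0, 1 and 1 IL-11+ tags (replicates 1, 2 and 3). This gene too passed the filter through IL-11- libraries alone, with IL-11+ libraries under the floor. With the replicate block *Atp6v0c* was also past the adjusted p (0.0355, beside 0.0902 without the block, the quasi-likelihood test of edgeR, Benjamini-Hochberg adjusted). Of 3 transcription factors of the family that drives lysosomal genes 2 were tested, and *Mitf* fell from 75, 42 and 48 IL-11- tags to 13, 17 and 22 IL-11+ tags in replicates 1, 2 and 3 (log2 fold change -1.51). *Tfe3*, the most abundant over all libraries but below *Mitf* in IL-11- fibroblasts, had a log2 fold change of 0.22, and *Tfeb* was not tested. *Sort1*, *Mitf* and *Atp6v0e2* moved in the same direction as 9 of the 10 muscle and pericyte markers and both tested glia markers, whose part in these results was not tested.

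Promoter sequences from RefSeq (GRCm38.p6), each 250 bases before to 50 after a start, were used for 8 of the 10 genes. Those of *Ctsb* and *Ctsh* were not analysed here. Motifs were searched on both strands: CACGTG, the E-box core that the factors named above bind, its extension TCACGTGA, which contains it, TTCNNNGAA, a form bound by STAT proteins, and TGANTCA, a form bound by AP-1. They occur in 7.15, 0.974, 8.30 and 7.81% of 32851 promoters of this length. Printed are *Ctsc* (chr7:88277835-88278134, plus strand) and *Ctsl* (chr13:64370471-64370770, minus strand), which rose, *Cst3* (chr2:148875463-148875762, minus strand), which fell, and *Ctsd* (chr7:142387778-142388077, minus strand) and a second start of *Ctsa* (chr2:164833523-164833822, plus strand), which hold TCACGTGA and did not pass the test. Capitals mark motif matches.
Ctsc: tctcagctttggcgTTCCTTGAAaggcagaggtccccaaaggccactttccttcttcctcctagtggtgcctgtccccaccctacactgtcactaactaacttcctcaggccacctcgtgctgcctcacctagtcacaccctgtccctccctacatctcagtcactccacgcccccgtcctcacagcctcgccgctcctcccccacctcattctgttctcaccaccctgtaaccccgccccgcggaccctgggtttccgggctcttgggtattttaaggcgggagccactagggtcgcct
Ctsl: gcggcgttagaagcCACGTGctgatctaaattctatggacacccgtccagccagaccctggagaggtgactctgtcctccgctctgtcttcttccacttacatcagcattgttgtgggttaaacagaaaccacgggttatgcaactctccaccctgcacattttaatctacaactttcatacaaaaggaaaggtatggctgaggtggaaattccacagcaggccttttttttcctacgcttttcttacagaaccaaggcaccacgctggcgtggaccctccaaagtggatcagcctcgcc
Cst3: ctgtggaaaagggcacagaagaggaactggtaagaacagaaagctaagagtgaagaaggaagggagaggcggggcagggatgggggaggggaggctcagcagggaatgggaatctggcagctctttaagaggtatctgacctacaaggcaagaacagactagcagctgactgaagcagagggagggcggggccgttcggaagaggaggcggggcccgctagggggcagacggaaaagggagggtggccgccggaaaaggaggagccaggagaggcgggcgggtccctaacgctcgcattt
Ctsd: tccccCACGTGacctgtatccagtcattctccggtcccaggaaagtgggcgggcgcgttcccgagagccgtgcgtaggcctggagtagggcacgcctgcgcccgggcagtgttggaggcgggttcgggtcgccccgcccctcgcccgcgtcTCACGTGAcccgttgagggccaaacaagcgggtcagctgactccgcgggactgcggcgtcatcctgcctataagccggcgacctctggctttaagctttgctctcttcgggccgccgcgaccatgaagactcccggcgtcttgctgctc
Ctsa: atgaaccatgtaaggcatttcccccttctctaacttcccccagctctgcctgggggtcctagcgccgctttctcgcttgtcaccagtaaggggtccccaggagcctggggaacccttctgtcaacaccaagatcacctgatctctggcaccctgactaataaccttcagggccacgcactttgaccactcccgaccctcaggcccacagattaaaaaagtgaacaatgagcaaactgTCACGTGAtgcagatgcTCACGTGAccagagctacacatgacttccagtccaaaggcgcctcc
*Ctsc* has 1 TTCNNNGAA match and no E-box in this window, and *Ctsl* has 1 CACGTG. *Ctsd* has 2 CACGTG, 1 of them inside TCACGTGA, and this start of *Ctsa* has 2 TCACGTGA. The other start of *Ctsa* (chr2:164832622-164832921, plus strand), not printed, has 0 matches to each of the motifs. *Cst3* had no match to any of them, and neither did *Ctsk*, *Ctss* and *Ctsz*. A match is a description of letters and not of binding.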

How the data were processed

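Tag counts per gene symbol were deposited by the authors without normalization for 6 libraries. According to the methods and the submitters' processing notes, reads were trimmed with cutadapt 1.18 and mapped with Bowtie2 2.2.5 to mouse RNA (mm10), with R 3.5.1 for later steps. How tags mapping to several genes were treated, and whether molecular identifiers were used, is not given in the sources used here. No window of 50 nt in the first 300 nt of these genes' transcripts occurred in a transcript of another gene.

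Counts were analysed in R 4.3.3 with edgeR 4.0.16 (limma 3.58.1): TMM scaling, the quasi-likelihood test and Benjamini-Hochberg adjustment over the 9334 genes that reached 10 tags in 3 or more libraries. The methods as printed exclude genes with 10 or more tags, which was read as keeping them. A gene was called at an adjusted p under 0.05 with a fold change over 2. The steps were tested on simulated data. Alternatives were RLE, library size scaling, iterative TMM, DESeq2 1.42.0, other filters, no fold threshold, the replicate block and each library left out.

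Replicate numbers come from the labels, and the methods name 3 mice. Over 5063 genes averaging 30 tags or more, deviations of same-numbered libraries from their group means correlated with r of 0.231, 0.186 and 0.268, so the numbers were taken to pair the libraries. The main fit and the fits with a library left out do not use this pairing, as the methods name no block. Only the fit with a replicate block uses it. Replicates of a group differed beyond sampling noise (chi-square per degree of freedom 2.52 to 5.80).

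Named genes are all 10 members, the other cathepsins and cystatins with at least 10 tags in any library, from each list its most abundant gene and up to 3 called genes in each direction with the largest change, the 3 genes nearest to each called member, and *Il11*. *Sidt2*, *Kcnj8*, *Notch3*, *Lgmn*, *Csf3r*, *S100a9*, the cystatins and cathepsins near the floor, and the markers named for being near 0 fall outside this rule and were chosen after their values were seen. The members and lists were chosen with earlier results of these data known. Some lists hold genes not analysed here, and some genes are not reported here.

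Positions and lengths come from GENCODE mouse release M21 (GRCm38). Length is that of the protein-coding transcript with the best APPRIS class, then the best support level. This rule was set after seeing the data: the first rule took the longest transcript of the best APPRIS class, which gave *Ctsl* a weakly supported transcript of 6168 nt, and another rule, by RefSeq record and support level, was also tried. Only per-kb levels depend on it.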

Additional observations from a re-analysis of the deposited data

How the results depend on the processing

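*Ctsc*, *Cst3* and *Cstb* kept their direction and an adjusted p under 0.05 in all 13 alternatives run for each, with log2 fold changes of 1.56 to 1.91, -1.06 to -0.80 and 1.07 to 1.31. *Ctsh* lost it in 1 and *Ctsl* in 3, all with a library left out and without the replicate block. The replicate block changed the adjusted p call of *Ctsk* and of no other of these genes, and gave 337 genes higher and 648 lower in all, beside 321 and 595 without it. By adjusted p without a fold threshold 638 genes were higher and 812 lower in all, and of the cathepsins and *Cst3* 3 were higher and 1 was lower. With at least 10 tags in all libraries 220 genes were higher and 256 lower, of fewer genes tested (7098). With library size scaling 1 member, *Cst3*, was called lower, and with single libraries left out 0 to 1 were. No scaling moved the median of all tested genes by over 0.1. Levels per kb moved beyond the replicate SD with other transcripts, chosen after seeing the data: *Ctsl* from 541 and 855 to 173 and 273 CPM per kb with the longest, and *Ctsa* from 62.0 and 64.6 to 89.2 and 93.0 and *Ctsc* in IL-11- fibroblasts from 152 to 118 with the RefSeq one. With 3 libraries per group and totals as given above, genes near the floor, such as *Ctss*, could not be compared. Transcript levels give no protein level or protease activity.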
